A study of Mus musculus with 4 samples.

Results

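RNA of undifferentiated mouse embryonic stem (ES) cells that lack the de novo DNA methyltransferases Dnmt3a and Dnmt3b was set against RNA of wild-type ES cells. ES cells are cultured cells of the early embryo that can form all of its tissues. The comparison used 2 of the 4 libraries of the study, DKO_ES (Dnmt3a/b double knockout, day 0) and WT_ES (wild type, J1 background, day 0), both of strain 129S4/SvJae. Both lines grew with fetal bovine serum and leukemia inhibitory factor (LIF), on irradiated feeder cells in earlier passages and then on gelatin without feeders. The other 2 libraries, WT_NP and DKO_NP, are neural progenitor cells made from the same lines through embryoid bodies and retinoic acid and taken at day 6. How many clones the knockout line represents, and its passage number, are details that the sources used here do not give.

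Of 23235 gene symbols, 13596 reached 1 FPKM (sequenced fragments scaled by transcript length and library size) in WT_ES or DKO_ES and were compared, and 9639 did not. With 1 library a side there is no test and no replicate check, so the values describe these libraries. Levels below are FPKM as deposited, and where a pair of values is given without library names the first is WT_ES and the next DKO_ES. Folds are ratios of FPKM after each library was divided by its median ratio to the geometric mean of the 4 libraries, with a 95% exact (Clopper-Pearson) interval of approximate read numbers that covers counting error only. Log2 ratios and 2-fold counts carry a pseudocount of 1 FPKM, which draws low genes toward 0.

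DNMT3A and DNMT3B place methyl groups on cytosines of CpG dinucleotides that carry none, and DNMT1 copies existing methylation to the daughter strand. In the embryo the de novo enzymes methylate many promoters of germ cell genes, which then stay silent in body tissues, and the imprinted regions that mark the parental origin of an allele are methylated in germ cells. ES cells in serum resemble the embryo around implantation, when this methylation is being laid down.

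DKO_ES resembled WT_ES at most genes. The median log2 ratio was 0.01, and 11534 genes (84.8%) lay within 0.5 of 0. In DKO_ES 348 genes (2.56%) were higher by 2-fold or more and 156 (1.15%) lower by as much. Short RNA genes, with transcripts under 200 bases or small-RNA names, gave 53 of the higher and 50 of the lower genes. Of these, 35 and 37 were listed at 0 in 1 of the libraries. Without the 221 short RNA genes compared, 295 of 13375 genes (2.21%) were higher and 106 (0.793%) lower. The following counts leave them out unless stated.

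The levels of these genes follow in part from how they were chosen. The 295 higher genes had a median of 2.58 FPKM in WT_ES against 10.6 in DKO_ES, with 93 of them under 1 FPKM in WT_ES, which passed the filter only through DKO_ES. The 106 lower genes had a median of 13.6 FPKM in WT_ES against 3.47 in DKO_ES, with 23 under 1 FPKM in DKO_ES, which passed only through WT_ES. Genes at 4-fold or more numbered 54 on the higher side and 14 on the lower side.

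**Figure D1:**
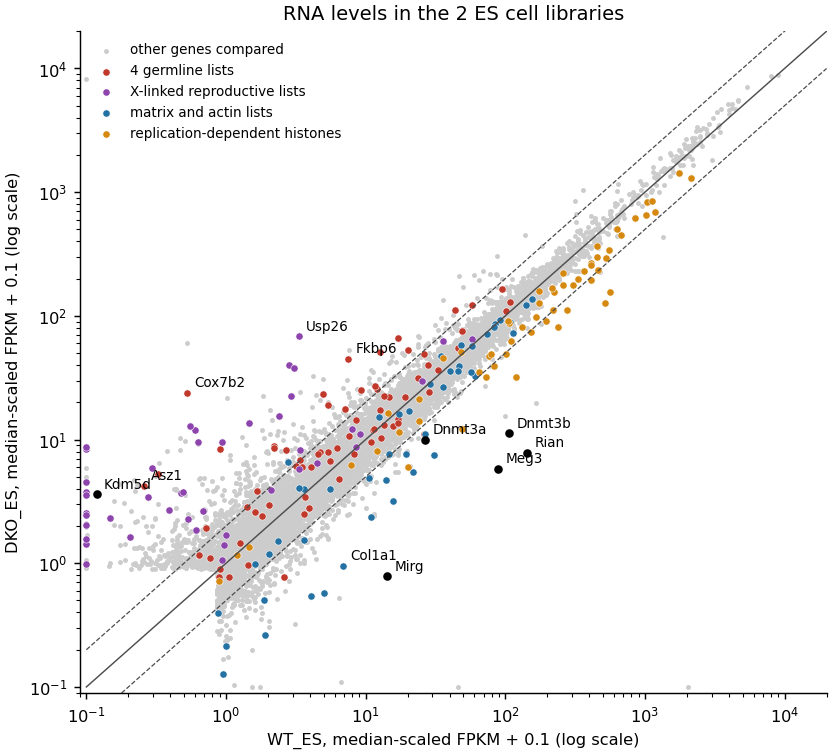
Median-scaled FPKM (plus 0.1, both axes logarithmic) of each gene compared, short RNA genes left out, in WT_ES (x) and DKO_ES (y), with coloured points for the gene lists and black points for single genes; the solid line marks equality and the dashed lines 2-fold. Of the 74 germline genes (red) 56 lie above the line of equality and 18 below it. Some lie above the upper dashed line, while Kit and Tdrd1 lie below the lower one. X-linked reproductive genes (purple) lie mostly above the upper dashed line at low WT_ES levels, and Meg3, Rian, Mirg and Dnmt3b lie far below the lower line.

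Promoters of 7 genes named below are printed first, because CpGs are the sites that the missing enzymes can methylate. Methylation of these promoters was not measured in these RNA libraries. Each runs from 250 bases before to 50 after a RefSeq transcription start (build GRCm38.p6), 5′ to 3′ on the gene's strand, with every CpG in capitals. Fkbp6, Asz1, Hormad1 and Cox7b2 are examples of autosomal germline genes, Usp26 and Rhox1 of X-linked ones, and Meg3 of the imprinted cluster. For Fkbp6, Hormad1 and Meg3 the first of 2 starts in the RefSeq table is shown.
Fkbp6, chr5:135349995-135350294, minus strand: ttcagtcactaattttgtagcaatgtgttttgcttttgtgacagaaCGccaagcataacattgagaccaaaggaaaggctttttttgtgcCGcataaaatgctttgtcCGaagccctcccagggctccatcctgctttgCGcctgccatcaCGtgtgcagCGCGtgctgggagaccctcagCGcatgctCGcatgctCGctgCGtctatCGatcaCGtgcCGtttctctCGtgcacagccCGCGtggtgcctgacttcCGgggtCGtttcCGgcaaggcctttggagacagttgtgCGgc
Asz1, chr6:18109012-18109311, minus strand: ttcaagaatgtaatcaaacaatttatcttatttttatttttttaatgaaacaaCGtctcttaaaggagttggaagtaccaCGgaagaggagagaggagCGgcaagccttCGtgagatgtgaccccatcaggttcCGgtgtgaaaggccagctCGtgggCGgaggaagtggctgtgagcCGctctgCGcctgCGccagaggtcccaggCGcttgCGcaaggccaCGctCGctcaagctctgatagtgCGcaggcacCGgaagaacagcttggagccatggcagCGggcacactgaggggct
Hormad1, chr3:95559427-95559726, plus strand: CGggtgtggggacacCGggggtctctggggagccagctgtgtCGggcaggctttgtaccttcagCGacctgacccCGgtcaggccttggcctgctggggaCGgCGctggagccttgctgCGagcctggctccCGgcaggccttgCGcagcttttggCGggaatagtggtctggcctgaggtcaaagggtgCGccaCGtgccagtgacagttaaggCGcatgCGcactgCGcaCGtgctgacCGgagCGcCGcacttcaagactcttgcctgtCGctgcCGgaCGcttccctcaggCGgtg
Cox7b2, chr5:71548156-71548455, minus strand: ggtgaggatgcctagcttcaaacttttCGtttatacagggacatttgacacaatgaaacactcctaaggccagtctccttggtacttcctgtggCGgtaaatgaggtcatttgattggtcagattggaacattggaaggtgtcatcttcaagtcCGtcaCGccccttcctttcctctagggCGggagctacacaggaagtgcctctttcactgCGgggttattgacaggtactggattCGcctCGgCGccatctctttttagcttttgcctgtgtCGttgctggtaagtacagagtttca
Usp26, chrX:51801184-51801483, minus strand: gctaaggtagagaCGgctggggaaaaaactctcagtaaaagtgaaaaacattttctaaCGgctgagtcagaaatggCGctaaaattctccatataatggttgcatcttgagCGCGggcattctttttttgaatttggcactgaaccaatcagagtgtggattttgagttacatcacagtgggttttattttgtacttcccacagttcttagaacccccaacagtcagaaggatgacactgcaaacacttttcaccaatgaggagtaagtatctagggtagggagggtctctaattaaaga
Rhox1, chrX:37222209-37222508, minus strand: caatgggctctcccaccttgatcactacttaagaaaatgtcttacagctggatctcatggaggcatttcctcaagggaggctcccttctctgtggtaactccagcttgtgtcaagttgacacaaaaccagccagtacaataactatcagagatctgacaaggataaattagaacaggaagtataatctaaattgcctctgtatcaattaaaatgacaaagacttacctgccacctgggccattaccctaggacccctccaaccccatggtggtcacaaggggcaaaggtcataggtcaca
Meg3, chr12:109540746-109541045, plus strand: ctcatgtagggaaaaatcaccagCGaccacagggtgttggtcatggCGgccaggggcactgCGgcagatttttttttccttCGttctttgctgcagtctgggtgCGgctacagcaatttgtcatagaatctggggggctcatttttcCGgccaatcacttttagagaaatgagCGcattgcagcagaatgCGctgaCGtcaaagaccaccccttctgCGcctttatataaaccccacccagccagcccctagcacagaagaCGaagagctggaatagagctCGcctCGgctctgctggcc

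The CpG number of these windows ranged widely. Hormad1 had 24, Fkbp6 21, Asz1 17, Meg3 13, Cox7b2 10, Usp26 5 and Rhox1 0. Over all 27025 RefSeq promoters of this length the median was 7, with quartiles of 3 and 20. Thus the printed germline promoters on autosomes were above the median and both X-linked ones below it. These are single chosen genes and do not describe their groups. In another window, the first 300 transcript bases (below), the compared Rhox genes had a median of 9 CpGs, beside 19 over all genes. On both strands, the letters TCCCGC, the core of the motif read by E2F6, occurred 1 time in Hormad1 and 1 time in Cox7b2. The letters CACGTG, an E-box that reads the same on both strands and is bound by MGA with MAX, occurred 2 times in Fkbp6 and 2 times in Hormad1. Both motifs contain a CpG, so their letters overlap the capitals. Of all promoters of this length, 20.1% held the first motif and 7.24% the second.

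The targeted genes served as a check of the labels. Dnmt3b stood at 140.2 FPKM in WT_ES against 13.9 in DKO_ES, a 9.56-fold lower value (interval 8.94 to 10.2). Dnmt3a stood at 35.3 and 12.3 FPKM, 2.72-fold lower (2.58 to 2.87). RNA of both genes was still measured in DKO_ES, and a value per gene does not show which exons it came from. Dnmt3l, a catalytically inactive cofactor of both enzymes, was at 148 FPKM in WT_ES against 250.2 in DKO_ES, 1.78-fold higher (1.71 to 1.85).

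The rest of the methylation machinery differed little. Of 11 maintenance and demethylation genes compared, 1 was at 2-fold, the thymine DNA glycosylase Tdg, which removes oxidised methylcytosine, at 7.77 FPKM in WT_ES against 2.96 in DKO_ES (2.49-fold lower, 2.07 to 3.01). Dnmt1 stood at 140.2 and 132 FPKM, its recruiting partner Uhrf1 at 190.2 and 222, and the methylcytosine oxidase Tet1 at 141 and 137. None of 17 methyl-CpG readers and KRAB corepressors reached 2-fold, and their median log2 ratio was -0.19. The same held for 11 PRC2 subunits (median -0.05), and for 8 subunits of PRC1.6, a Polycomb complex that holds germline genes silent (median 0.06, and -0.01 as deposited). In 16 PRC1 genes (median -0.14) the member at 2-fold was Bmi1, at 3.45 FPKM in WT_ES against 8.36 in DKO_ES.

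Genes of germ cells were among the higher genes. Over 4 lists (germ cell regulators, the piRNA pathway, meiotic chromosome genes and autosomal testis genes), 19 of 74 genes compared were at least 2-fold higher (25.7%) and 2 lower (2.7%), beside 2.21% and 0.793% of all genes. Their median log2 ratio was 0.48, or 0.28 when the 21 members under 1 FPKM were included, beside 0.01 for all genes. In a bulk library, more cells that express a gene and more RNA per cell cannot be told apart.

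The piRNA pathway uses small RNAs bound by PIWI proteins to silence transposons in the germ line. Of its 17 members compared 6 were higher (35.3%, beside 2.21% of all genes) and 1 lower, with a median of 0.61. Another 3 members stayed under the filter, and Asz1 passed it only through DKO_ES. Fkbp6, a cochaperone of PIWI loading, stood at 9.78 FPKM in WT_ES against 56 in DKO_ES, 6.04-fold higher (5.2 to 7.03). Asz1, a mitochondria-anchored piRNA factor, was close to absent in WT_ES at 0.207 FPKM and stood at 5.18 in DKO_ES, 26.4-fold higher (12.5 to 66.6). The promoters printed above for Fkbp6 and Asz1 hold 21 and 17 CpGs. Gtsf1, a partner of PIWI proteins, stood at 6.38 FPKM in WT_ES against 29.1 in DKO_ES. The PIWI genes Piwil2 and Piwil4 were at 12.1 and 3.4 FPKM in WT_ES and at 31.4 and 10.2 in DKO_ES. The Tudor-domain gene Tdrd12 was at 57 and 139.5 FPKM. These 4 genes were between 2.58-fold and 4.81-fold higher. The Tudor-domain scaffold gene Tdrd1 went the other way, at 3.3 FPKM in WT_ES against 0.836 in DKO_ES, 3.74-fold lower (2.85 to 4.97). The Mael gene, whose protein acts in piRNA silencing, was already at 37.5 FPKM in WT_ES and stood at 30.2 in DKO_ES.

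Meiotic genes build the axis and the synaptonemal complex along which homologous chromosomes pair. Of 19 compared 4 were higher (21.1%, beside 2.21% of all genes) and 0 lower, with a median of 0.49. Another 6 members stayed under the filter. Hormad1, which marks unpaired chromosome axes, stood at 16.7 FPKM in WT_ES against 63.9 in DKO_ES, 4.02-fold higher (3.59 to 4.53). Its paralog Hormad2 stood at 6.98 and 23.9 FPKM, 3.6-fold higher (3.08 to 4.24). The meiotic cohesin gene Smc1b was at 15.3 and 33.8 FPKM. The synaptonemal complex gene Syce3 was at 15.9 and 31.9 FPKM. Among members of high WT_ES level, the synaptonemal complex gene Syce2 was at 125 and 207 FPKM, 1.75-fold higher (1.68 to 1.83), and the recombination gene Hsf2bp at 36.8 and 49.6, 1.42-fold higher (1.33 to 1.51). The cohesin gene Stag3 was at 60.3 and 68.5 FPKM, and the axis gene Sycp3 at 25 and 27.4.

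Among autosomal testis genes 7 of 18 were higher (38.9%, beside 2.21% of all genes) and 0 lower, with a median of 0.78. Another 8 members stayed under the filter. Cox7b2 and Pdha2 passed it only through DKO_ES, so they could only come out higher. Cox7b2, a testis form of a cytochrome c oxidase subunit, stood at 0.563 FPKM in WT_ES against 29.8 in DKO_ES. Its 55.9-fold difference has a wide interval (22.4 to 191.7) because few WT_ES reads lie behind it. Pdha2, the testis pyruvate dehydrogenase subunit, stood at 0.296 and 6.45 FPKM, 23-fold higher (12.3 to 48.5). Slc25a31, a germ cell ADP/ATP carrier, was at 2.77 FPKM in WT_ES against 10.9 in DKO_ES. Ctcfl, the testis paralog of the insulator protein CTCF, was at 2.76 and 10.6 FPKM. These germ cell genes were 4.14-fold (3.26 to 5.31) and 4.02-fold (3.31 to 4.92) higher. The tubulin genes Tuba3b and Tuba3a were at 1.07 and 26.3 FPKM in WT_ES and at 10.4 and 66.2 in DKO_ES; they are close copies, so the split of reads between them is uncertain.

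Transcription factors and RNA-binding regulators of germ cells had the lowest median of these groups, at 0.20, and at 0.03 with the members under 1 FPKM. Of 20 compared 2 were higher (10%, beside 2.21% of all genes) and 1 lower (5%, beside 0.793%). Dppa3, a maternal and germ cell factor, stood at 22.4 FPKM in WT_ES against 83.4 in DKO_ES, 3.93-fold higher (3.43 to 4.51). Dazl, an RNA-binding protein that licenses germ cell development, stood at 9.22 and 22 FPKM, 2.52-fold higher (2.24 to 2.84). The receptor gene Kit, used by primordial germ cells, was at 34.2 FPKM in WT_ES against 13.7 in DKO_ES, 2.37-fold lower (2.21 to 2.55). Tfap2c, a regulator of germ cell specification, was at 22.4 and 16.8 FPKM.

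**Figure D2:**
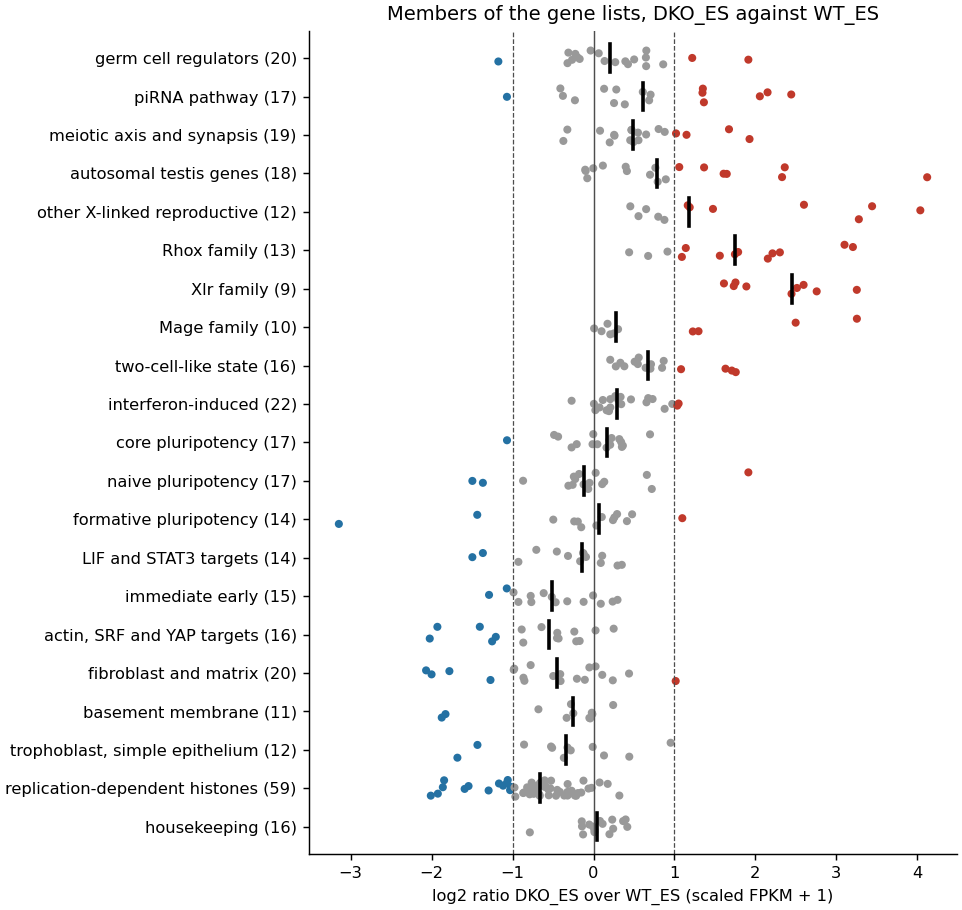
Log2 ratio of DKO_ES over WT_ES (scaled FPKM plus 1; x axis) for each compared member of 21 gene lists, with the number of members in brackets; black bars are list medians, red points are at least 2-fold higher, blue points at least 2-fold lower, and vertical scatter has no meaning. The 9 Xlr genes all lie beyond the right dashed line (2-fold), while actin, matrix and histone lists have medians of -0.55, -0.45 and -0.66.

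Among chromosome X and the autosomes, X had the highest share of higher genes. Of 497 X-linked genes compared 57 (11.5%) were at least 2-fold higher and 1, the matrix proteoglycan gene Bgn, lower. On the 19 autosomes 231 of 12773 (1.81%) were higher, ranging from 0.791% to 2.95% between chromosomes. The median log2 ratio of X-linked genes was 0.17 and 348 of them (70%) were above 0, while autosomal medians ran from -0.04 to 0.06. With no filter on low values the X-linked median was 0.01.

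Reproductive gene families account for part of the X-linked count. These are clusters of testis, ovary and placenta genes that exist in many near-identical copies, so the level of a single copy is uncertain. Over the X-linked testis genes outside the families, Rhox and Xlr, 34 of 64 members found passed the filter. Of these 26 were at least 2-fold higher (76.5%, beside 2.21% of all genes and 11.5% of X-linked genes) and 0 lower. Their median was 1.75. Members near 0 in WT_ES passed only through DKO_ES, so this count was bound to favour higher values, and with all members included the median was 0.66.

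Usp26, a testis deubiquitinase, stood at 4.26 FPKM in WT_ES against 85.6 in DKO_ES, 21.2-fold higher (18.7 to 24.1). Efhc2, an EF-hand gene, stood at 3.63 and 49.7 FPKM, 14.4-fold higher (12.1 to 17.4). The RNA export factor paralogs Nxf3 and Nxf2 were at 1.81 and 0.381 FPKM in WT_ES and at 16.8 and 3.24 in DKO_ES. Below 2-fold, Fmr1nb, a testis antigen gene, was at 47.2 and 78.8 FPKM, and the meiotic gene Tex11 at 10.5 and 15.2.

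The Rhox genes encode homeobox factors of the testis, ovary and placenta. Of 31 members 13 passed the filter and 10 were at least 2-fold higher (76.9%, beside 2.21% of all genes). Rhox1, Rhox7 and the Rhox2 copies passed only through DKO_ES, so this count was bound to favour higher values. Rhox1 stood at 0.656 FPKM in WT_ES against 14.8 in DKO_ES, 23.8-fold higher (12 to 54.8), and its printed promoter holds no CpG. Rhox13, a germ cell member, stood at 3.03 and 19.097 FPKM, 6.65-fold higher (4.72 to 9.6). The 6 Rhox2 copies that passed (Rhox2a, Rhox2b, Rhox2c, Rhox2d, Rhox2g and Rhox2h) were all listed at 0 in WT_ES, with 2.44 to 10.3 FPKM in DKO_ES. Rhox6 and Rhox9, the placental members, were at 4.33 and 5.81 FPKM in WT_ES and at 10.2 and 7.93 in DKO_ES. The other 18 members stayed under 1 FPKM in both libraries.

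All 9 listed Xlr genes, relatives of the synaptonemal complex gene Sycp3, passed the filter and were at least 2-fold higher, beside 2.21% of all genes. Their median was 2.45, and no member was left under the filter. Only Xlr3a and Xlr5b reached 1 FPKM in WT_ES. The other Xlr genes passed through DKO_ES alone, so they could only come out higher. Xlr3a stood at 3.75 FPKM in WT_ES against 27.8 in DKO_ES, 7.82-fold higher (6.75 to 9.09). Xlr3c stood at 0.599 and 16.1 FPKM, 28.3-fold higher (16.6 to 52.8), and Xlr5c was listed at 0 in WT_ES and at 5.57 in DKO_ES. In the Mage family of testis antigens, 10 of 22 members passed and 4 were higher (40%, beside 2.21% of all genes). These 4 passed only through DKO_ES, and the median was 0.28, or 0.19 with all members. WT_ES values of Magea4, Magea5 and Magea8 were listed as 0, and their DKO_ES values were 10.7, 1.68 and 1.82 FPKM, and Mageb4 stood at 0.26 and 7.21. Maged1, a broadly expressed member, was at 76.3 and 81.8 FPKM and Mageb16 at 33.4 and 36.8.

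Of the 453 X-linked genes outside these families 27 (5.96%) were higher, beside 1.81% on autosomes, with a median of 0.13 and 304 above 0. Scml2, a Polycomb-related gene of the male germ line, stood at 2.31 FPKM in WT_ES against 28 in DKO_ES, 12.8-fold higher (10.9 to 15.1). Further genes were chosen after their values were seen. The unnamed transcript 1700013H16Rik was at 0.561 and 74.7 FPKM, 140.3-fold higher (75.7 to 294.9). Klhl13, an adaptor of a ubiquitin ligase, was at 78.2 and 269 FPKM, 3.63-fold higher (3.5 to 3.76). Tsx, a testis-expressed gene next to the X-inactivation centre, was at 2.6 and 21.5 FPKM.

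Genes of chromosome Y were higher as well. All 7 compared were above 0, with 5 at 2-fold (71.4%, beside 2.21% of all genes) and a median of 1.88. Of these Kdm5d, Zfy1 and Usp9y passed the filter only through DKO_ES, and Sry and Zfy2 stayed under it, so the count and the median were bound to favour higher values. Kdm5d, a histone demethylase, stood at 0.0241 FPKM in WT_ES against 4.42 in DKO_ES, 192.8-fold higher (63 to 1028). The transcription factor gene Zfy1 was at 0.369 and 9.92 FPKM, 28.3-fold higher (17 to 50.8), and the deubiquitinase gene Usp9y at 0.113 and 3.74. Eif2s3y, a translation initiation factor, was well expressed in both, at 40.4 and 81.7 FPKM. Among X-linked partners, Eif2s3x was at 186 and 198 FPKM and Kdm5c at 66.4 and 62.9. Xist, the RNA that coats an inactive X chromosome, was low in both libraries at 1.32 and 1.21 FPKM. Y-linked RNA was thus present in both lines at Eif2s3y, while Kdm5d, Zfy1 and Usp9y stayed under 1 FPKM in WT_ES and in WT_NP.

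**Figure D3:**
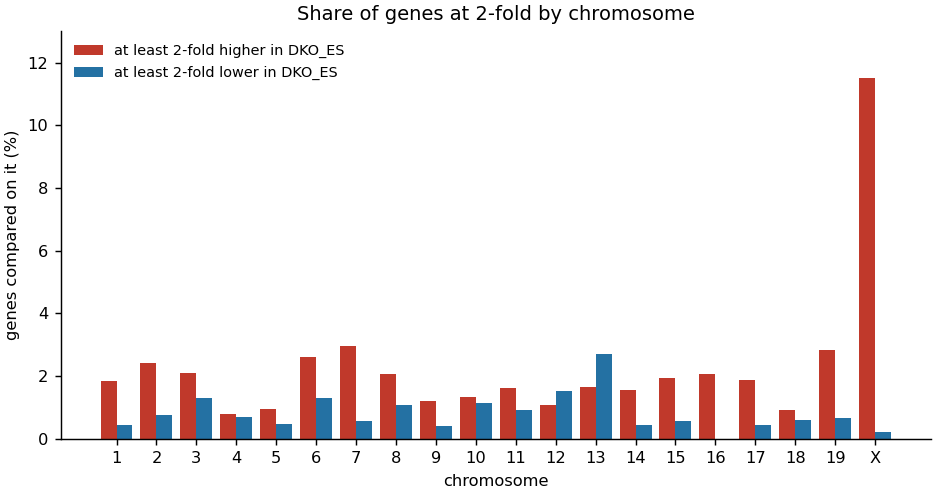
Percent of the genes compared on each chromosome (bars from 0) that were at least 2-fold higher (red) or lower (blue) in DKO_ES, short RNA genes left out. Chromosome X stands at 11.5% higher, beside at most 2.95% on any autosome, and chromosome 13, which carries most histone genes, at 2.7% lower; chromosome Y, with 7 genes, is not drawn.

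Imprinted genes are expressed from the maternal or the paternal allele. Most of those compared differed by less than 2-fold. Of 23 maternally expressed genes 1 was higher (4.35%) and 3 lower (13%). Of 22 paternally expressed genes 0 were higher and 3 lower (13.6%). Among all genes the shares were 2.21% higher and 0.793% lower. Both lists had a median of -0.11. The lowest members lie in the Dlk1-Meg3 cluster on chromosome 12, whose maternal allele makes long noncoding RNAs and small RNAs. Rian stood at 189 FPKM in WT_ES against 9.7 in DKO_ES, 18.5-fold lower (17.4 to 19.6). Meg3 stood at 118 and 7.16 FPKM, 15.6-fold lower (14.8 to 16.4), and Mirg at 18.8 and 0.854, 20.8-fold lower (15.7 to 28.2). Rtl1, the retrotransposon-like gene of the paternal allele, was lower too, at 4.01 and 0.279 FPKM, 13.6-fold lower (9.26 to 20.9). Strand is not mentioned in the protocol, so reads of Rtl1 cannot be told apart from those of its maternal antisense RNA. The cluster's coding gene Dlk1, which no naming rule covers, was at 1.3 FPKM in WT_ES against 0.373 in DKO_ES. Of 19 short RNA genes of chromosome 12, 13 were higher in WT_ES and 10 were listed at 0 in DKO_ES alone, against 2 in WT_ES alone. On the other chromosomes 90 of 202 were higher in WT_ES, with 27 listed at 0 in DKO_ES alone and 33 in WT_ES alone. These counts are by chromosome and do not place the short RNA genes in the cluster.

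At the Igf2-H19 locus the members differed in opposite directions. H19, a maternal noncoding RNA, stood at 17.9 FPKM in WT_ES against 36 in DKO_ES, 2.12-fold higher (1.92 to 2.34), while the paternal growth factor gene Igf2 stood at 9.89 and 2.99, 3.14-fold lower (2.69 to 3.67). Nnat, a paternal proteolipid gene of neurons, was at 14 and 5.64 FPKM. Snrpn, Peg10, Mest and Slc38a4 were at 89.2, 62.9, 57.4 and 77.6 FPKM in WT_ES and at 60.6, 54.4, 65.3 and 94.9 in DKO_ES, with folds between 1.1 and 1.4.

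Pluripotency genes kept high levels in both libraries. Pou5f1, the Oct4 gene, stood at 1087 FPKM in WT_ES against 1153 in DKO_ES, and the naive-state gene Zfp42 at 620.0 and 645. Of 17 core genes 0 were higher and 1 lower (5.88%, beside 0.793% of all genes). The lower one was Utf1, a chromatin factor of ES cells, at 237 and 106 FPKM (2.11-fold lower, 2 to 2.23). Of 17 naive genes 1 was higher (5.88%, beside 2.21% of all genes), Dppa3 (above), and 2 were lower (11.8%, beside 0.793%). Klf4, a factor downstream of LIF, stood at 93.9 FPKM in WT_ES against 33.8 in DKO_ES, 2.64-fold lower (2.49 to 2.8). Tbx3, another LIF-responsive factor, stood at 22.4 and 6.71 FPKM, 3.16-fold lower (2.86 to 3.5). Of 14 targets of LIF and STAT3 compared, these 2 were lower (14.3%, beside 0.793% of all genes), or 3 as deposited. On that list 0 were higher, 10 were below 0 and the median was -0.15. Other targets had smaller ratios, with Junb at 51.3 and 25 FPKM, Pim3 at 129 and 74.5, Socs3 at 82 and 71 and Pim1 at 104 and 126. Among formative genes Grhl2, an epithelial regulator, was at 12.1 and 26.1 FPKM, and Lef1, a partner of beta-catenin, at 5.73 and 1.22.

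Genes of the 2-cell-like state, which a few ES cells enter at any time, were all above 0 among the 16 compared (median 0.67). Of these 4 were at 2-fold (25%, beside 2.21% of all genes). Another 6 members stayed under the filter and Tdpoz3 and Tdpoz4 passed it only through DKO_ES; with all members included the median was 0.53. Tdpoz3 and Tdpoz4, BTB-domain genes of the cleavage embryo, stood at 0.498 and 0.909 FPKM in WT_ES and at 4.58 and 5.66 in DKO_ES. The deubiquitinase genes Dub1a and Dub1 were at 2.43 and 2.34 FPKM and at 9.77 and 6.1. Zscan4c, the usual marker of that state, was at 11.1 and 14.1 FPKM, 1.34-fold higher (1.17 to 1.54). All are members of copied families. Of 22 interferon-induced genes compared 21 were above 0, with a median of 0.29 (0.19 with the members under 1 FPKM). At 2-fold there were 2 (9.09%, beside 2.21% of all genes), or 0 as deposited. Ifitm1 was at 424 and 835 FPKM and Xaf1, a proapoptotic gene, at 12.3 and 25.2.

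In signalling pathways few members reached 2-fold, a level at which 2.21% of all genes were higher and 0.793% lower. Of 13 Nodal pathway genes 1 was higher, the inhibitor Lefty2, at 43.7 FPKM in WT_ES against 96.4 in DKO_ES, whereas its paralog Lefty1 was at 150.4 and 115. Of 20 FGF and ERK genes the ligand Fgf15 was higher, at 14.4 and 28.9 FPKM, and the feedback inhibitor Spry2 lower, at 40.4 and 17.9. Of 15 Wnt genes Lef1 alone was at 2-fold, and none of 11 BMP and Id genes was. Immediate early genes, which respond to growth factors within minutes, had a median of -0.52. Fosb stood at 5.54 and 1.41 FPKM, 3.73-fold lower (2.92 to 4.82), and Jun at 13.2 and 5.31, 2.36-fold lower (2.04 to 2.74). In WT_ES and DKO_ES, Ier2 was at 122 and 57.9 FPKM, Junb at 51.3 and 25, and Egr1 at 37.4 and 20.3. All 5 of these genes stood lower in DKO_ES, and 12 of 15 on the list did.

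Cytoskeletal and matrix genes were among the lower genes. Of 16 targets of SRF and YAP, which respond to actin tension, 5 were lower (31.2%, beside 0.793% of all genes) and 0 higher, and the median was -0.55. Thbs1, a matrix glycoprotein, stood at 20.6 FPKM in WT_ES against 3.87 in DKO_ES, 5.06-fold lower (4.51 to 5.68). Tagln, an actin-binding protein of smooth muscle, stood at 40.5 and 9.18 FPKM, 4.19-fold lower (3.62 to 4.87). The YAP targets Cyr61 and Ctgf were at 25.5 and 34.9 FPKM in WT_ES and at 9.42 and 13.6 in DKO_ES. Flna, an actin crosslinker, was at 185 and 152 FPKM, 1.16-fold lower (1.14 to 1.18).

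Collagens followed the same direction. Col1a1 stood at 8.93 FPKM in WT_ES against 1.07 in DKO_ES, 7.94-fold lower (6.43 to 9.9), and Col1a2 at 5.23 and 0.556, 8.92-fold lower (6.57 to 12.4). The basement membrane collagens Col4a1 and Col4a2 were at 28.7 and 14.4 FPKM in WT_ES and at 6.77 and 2.81 in DKO_ES. The laminin genes Lamc1 and Lama5 were nearly level, at 109 and 75.7 FPKM against 102 and 71.1. Of 20 fibroblast and matrix genes 4 were lower (20%, beside 0.793% of all genes). On that list 1, the transcription factor Twist1, was higher (5%, beside 2.21%), and the median was -0.45. As deposited, and also when scaled on the ES libraries alone, 7 were lower. Feeder fibroblasts express several of these genes. The 9 fibroblast markers summed to 23.4 FPKM in WT_ES against 8 in DKO_ES, with 6 of 9 lower, 2 of them at 2-fold, Dcn listed at 0 in both libraries and Lum at 0 in WT_ES. Their part in the matrix and actin differences was not tested.

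Epithelial keratins stood lower as well, with Krt8 at 52.9 FPKM in WT_ES against 14.8 in DKO_ES, 3.4-fold lower (3.05 to 3.78), and Krt19 at 21.3 and 6.7. The summed trophoblast markers were at 7.21 and 4.35 FPKM and those of primitive endoderm at 5.61 and 2.24, where 5 of 5 were lower. Neural markers summed to 66.1 and 84.6 FPKM, and mesoderm markers to 2.36 and 2.82. By contrast the 7 ES cell markers summed to 6700 FPKM in WT_ES against 7580 in DKO_ES, so the labelled cell type carried its defining markers in both. Early neural genes included 2 of 9 at 2-fold higher (22.2%, beside 2.21% of all genes), but 4 of the 9 were below 0 and the median was 0.10. Another 11 members stayed under the filter. Notch1 was at 21.3 FPKM in WT_ES against 18.9 in DKO_ES and Nes at 16.9 and 17.2. Pax6 stood at 3.96 FPKM in WT_ES against 10.5 in DKO_ES, and the Notch ligand Dll1 at 4.81 and 12.7. The G1 cyclin Ccnd2 was at 4.36 and 13.8 FPKM, 3.32-fold higher (2.97 to 3.73), and the p53 target Perp at 22.5 and 9.17, 2.33-fold lower (2.02 to 2.69).

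Replication-dependent histone genes, whose transcripts end in a stem-loop in place of a poly(A) tail, were lower in DKO_ES across the family. Of 59 compared 13 were at least 2-fold lower (22%, beside 0.793% of all genes) and 0 higher, and the median was -0.66, with 3 above 0. Hist1h3e stood at 679 FPKM in WT_ES against 159 in DKO_ES, 4.05-fold lower (3.86 to 4.25). Hist1h2ak stood at 746 and 196 FPKM, 3.61-fold lower (3.39 to 3.85). Hist1h4d, an abundant member, was at 2840 and 1639 FPKM. These are short genes in copied families, so the split of reads between members is uncertain.

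Large families of housekeeping function stayed together. Of 82 ribosomal protein genes 1 was at 2-fold in each direction, with a median of 0.16. The lower one, Rps27, stood at 217 FPKM in WT_ES against 24.8 in DKO_ES but at 213 and 204 in the day 6 libraries, and such genes have many processed copies that share reads. The higher one was Rpl10l, the testis paralog of Rpl10, at 76.1 and 152 FPKM. Of 85 electron transport subunits 2 were higher, Cox7b2 and the muscle subunit Cox6a2, and Ndufab1 was lower. None of 330 zinc finger (Zfp) genes, 22 glycolytic genes, 20 genes of threonine and one-carbon metabolism, 16 housekeeping genes or 14 MHC class I genes reached 2-fold. Clustered protocadherins and Hox genes, which often carry methylated or Polycomb-bound CpG islands, were mostly under 1 FPKM in both libraries (44 of 57 and 36 of 40), and none of the 13 and 4 compared was at 2-fold.

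Some of the largest ratios belong to genes outside these groups. Wfdc15a, a protease inhibitor-type gene, stood at 0.486 FPKM in WT_ES against 12.7 in DKO_ES, and Nlrp4c, a relative of egg-expressed NLRP genes, at 0.541 and 12. Gpx2, a glutathione peroxidase, was at 9.87 and 66.3 FPKM, 7.08-fold higher (6.41 to 7.83), and the membrane protein gene Tmem40 at 5.37 and 40.3, 7.91-fold higher (6.54 to 9.65). On the lower side Tmem38b, an intracellular cation channel, stood at 132 and 19.14 FPKM, 6.55-fold lower (6.09 to 7.05). The aldose reductase gene Akr1b3 was at 14.9 and 2.88 FPKM and the phosphatase gene Ptpn14, a regulator of YAP, at 15 and 3.02.

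Higher genes began with fewer CpGs than lower ones. RefSeq promoters were found for 231 of the 295 higher genes (78.3%) and 77 of the 106 lower ones (72.6%), under the 80% required, so a promoter comparison over these sets is void. The first 300 bases of the longest transcript (GENCODE M21) were therefore used, an alternative chosen after seeing the data, which covers 291 and 104 of them. The median number of CpGs there was 19 over all genes, 8 in the higher genes and 23 in the lower ones. Of 480 genes with 0 to 2 CpGs 6.46% were higher, of 889 with 3 to 5 6.86%, of 1874 with 6 to 10 4.54%, of 3860 with 11 to 20 1.84% and of 6118 with 21 or more 0.703%. The share of lower genes lay between 0.48% and 0.948% over the same bins.

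The median level in WT_ES was 8.25 FPKM in the first of these bins and 18.4 in the last, so the shares were also split by the mean scaled FPKM over all 4 libraries, a split chosen after seeing the data. Below a mean of 5 the share of higher genes ran from 10.1% with 0 to 2 CpGs to 1.16% with 21 or more. At 5 or more it ran from 3.66% to 0.591%, with 5.17% at 3 to 5 CpGs. With 21 or more CpGs the share of lower genes was 1.16% below 5 and 0.897% at 5 or more. Without chromosome X the shares over the 5 bins were 5.66%, 5.45%, 3.47%, 1.63% and 0.687%. Germline genes were not at the CpG-poor end. Their 4 lists had a median of 15 CpGs, against 9 in the X-linked reproductive lists and 1 in the 2-cell-like list. Transcript starts in an annotation need not be the starts used in these cells.

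**Figure D4:**
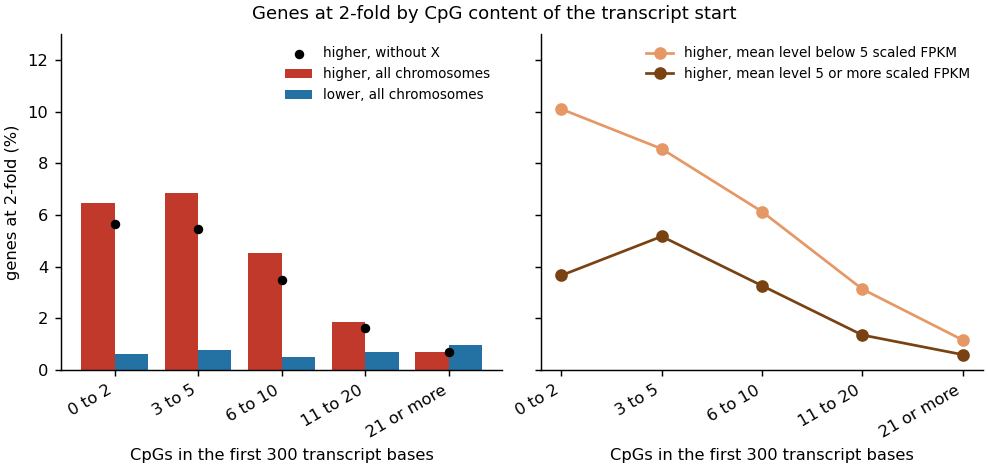
Percent of genes (y axis from 0) at least 2-fold higher or lower in DKO_ES by the number of CpGs in the first 300 transcript bases, over all levels (left, black points without chromosome X) and for higher genes split at a mean of 5 scaled FPKM over the 4 libraries (right, lines). On the left the share of higher genes goes from 6.46% in the first bin to 0.703% in the last, and on the right it goes from 10.1% to 1.16% below 5 and from 3.66% to 0.591% at 5 or more.

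The day 6 libraries of the same lines give the knockout difference in other cells; they share no library with the ES comparison, but they descend from the same cultures and are not independent replicates. Over the same 13375 genes, 490 (3.66%) were at least 2-fold higher in DKO_NP than in WT_NP and 614 (4.59%) lower. Of the 295 genes higher in DKO_ES 115 (39%) were also at least 2-fold higher on day 6 and 5 (1.69%) lower, with a median day 6 log2 ratio of 0.60. Of the 106 lower genes 23 (21.7%) were also lower on day 6 and 2 higher, with a median of -0.28.

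Of the 74 genes of the 4 lists 38 were at least 2-fold higher and 0 lower, with a median of 1.12, against 19 higher and 2 lower between the ES libraries. Dazl stood at 0.733 FPKM in WT_NP against 55.7 in DKO_NP, beside 9.22 and 22 in the ES libraries, and Fkbp6 at 0.549 and 19.5. WT_NP lay below WT_ES at both genes. Of the 34 X-linked reproductive genes 24 were higher on day 6. Whether the ES and day 6 differences differ was not tested.

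Single genes show the range. Meg3 was at 199 FPKM in WT_NP against 1.27 in DKO_NP, and Rian at 177 and 2.6, so both RNAs were low in the knockout at both stages. Dlk1, in the same cluster, was at 20.3 and 24.4 FPKM on day 6. Of the 15 highest named genes 13 were also at least 2-fold higher on day 6, and 8 are on chromosome X and 1 on Y. Gpx2 was not among them, at 1.29 and 1.62 FPKM. Histone genes had a day 6 median of 0.63, the opposite sign to their -0.66 between the ES libraries. Immediate early genes had a day 6 median of 0.01 and actin and YAP targets one of -0.33.

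**Figure D5:**
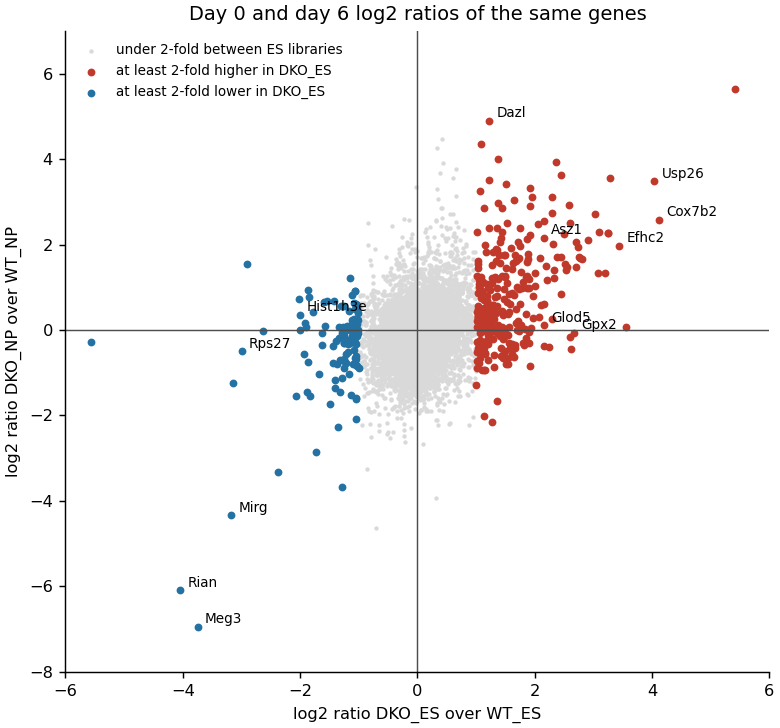
Log2 ratio of DKO_ES over WT_ES (x axis) against that of DKO_NP over WT_NP (y axis) for each gene compared (scaled FPKM plus 1), with genes at least 2-fold higher in DKO_ES in red and lower ones in blue; Lars2 and LOC100861572 lie outside the axes. Of the red points 115 lie at or above 1 on the y axis and 5 at or below -1, and Meg3, Rian and Mirg form the lower left corner.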

How the data were processed

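RNA depleted of rRNA was sequenced from 4 cultures, single-end on an Illumina HiSeq after TruSeq preparation, per the labels' protocols. Bowtie and TopHat with mouse build mm9 are named per the submitters' processing notes; the versions, the program and annotation behind FPKM and its handling of reads that map to several places are details the sources used here do not give. The authors deposited FPKM for 23235 symbols in 1 table (18 blank rows left out, 0 columns unmapped), and an exact 0 can be a failed estimate.

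Genes at 1 FPKM or more in WT_ES or DKO_ES were compared as log2((scaled FPKM + 1)/(scaled FPKM + 1)), with scaling factors of 1.32 for WT_ES and 1.25 for DKO_ES. No test was run, since each group holds 1 library. The read unit was inferred from steps of low FPKM values, where 402 of 2743 low genes fell in 1 narrow bin of the ratio between ES libraries against a mean of 1.98 per bin. With GENCODE M21 transcript lengths it gave approximate denominators of 14.4 M reads in WT_ES and 15.6 M in DKO_ES. Reads so estimated in genes of 1 kb or more summed to 26.3 and 28.4 M, above those denominators, so read numbers are rough and intervals may be too narrow. In a 2 kb gene, 3 reads come to 0.104 FPKM in WT_ES and 0.096 in DKO_ES. Intervals treat PCR copies as independent molecules.

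The gene lists (50) and the genes named were chosen with earlier results of these data known. Named genes are the methylation genes; the 15 highest and 15 lowest log2 ratios at 5 FPKM or more, without small RNAs and unnamed models; list members at 2-fold, up to 8, with up to 4 further members of highest WT_ES level; and genes listed at 0 in 1 library and at 5 FPKM or more in the other. Chromosomes come from a RefSeq gene list and promoters from RefSeq (GRCm38.p6). Transcript lengths and the CpG counts of transcript starts come from GENCODE M21 (GRCm38). No mm9 coordinate was used. Scripts ran in Python 3.11.15 with pandas 2.3.3 and SciPy 1.17.1 and were tested on simulated data.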

Additional observations from a re-analysis of the deposited data

Results flagged for a closer look

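Replication-dependent histone genes differed in opposite directions between the stages. Their median log2 ratio was -0.66 in DKO_ES against WT_ES and 0.63 in DKO_NP against WT_NP. The difference between the stages was not tested.

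Lars2, a mitochondrial leucyl-tRNA synthetase gene that every cell uses, was listed as 0 in WT_ES, 10341 FPKM in DKO_ES, 3681 in WT_NP and 1325 in DKO_NP. With the pseudocount its log2 ratio was 13.01 between the ES libraries and -1.91 on day 6, a difference that was not tested. A level of 0 beside such values can be a failed estimate, and Lars2 counts among the 295 higher genes.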

How the results depend on the processing

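No named gene at 2-fold and no list median at or beyond 0.5 in size changed sign under any alternative run. Values nearer to 0 did in places, such as the PRC1.6 median, which was 0.06 and, as deposited, -0.01. Of 2340 values of 299 named genes under the alternatives 289 moved beyond their counting error (0.25 where a library is at 0); a change of sign was counted only for values at 2-fold, where there were 0, and smaller ones did change sign, such as Tet1 from 0.03 to -0.05 as deposited. The counts over all genes and over X-linked genes in this paragraph include short RNA genes, so they compare with 348 higher and 156 lower genes and with 59 and 1 on chromosome X. As deposited, without scaling, 2 X-linked genes were lower, and 0 fibroblast genes were higher and 7 lower. Scaling on the ES libraries alone also gave 7 lower fibroblast genes. A pseudocount of 0.1 FPKM gave 639 higher and 334 lower genes, 6 lower X-linked genes, 8 lower fibroblast genes with a median of -0.74, an actin list median of -0.80 and an X-linked reproductive median of 3.25. A pseudocount of 5 FPKM gave 158 higher and 88 lower genes, 27 X-linked genes higher and 0 lower, 2 actin genes lower, 0 fibroblast genes higher and 1 lower with a median of -0.20, 11 germline genes higher and 0 lower, and 11 X-linked reproductive genes higher with a median of 0.68. With no filter the X-linked reproductive median was 0.66. A filter at 5 FPKM left 36 X-linked genes higher and 0 lower, 1 germline gene lower, and 13 X-linked reproductive genes higher with a median of 2.60. At 4-fold in place of 2-fold, 91 genes were higher and 56 lower, or 54 and 14 without short RNA genes. Leaving out short RNA genes was chosen after seeing the data. No paired analysis was possible because each group holds 1 library, and no replicate could be left out.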

Other observations

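Genes with values at the edge of the table were chosen after their values were seen. LOC100861572, a model without a chromosome here, was listed at 2681 FPKM in WT_ES, at 1869 in WT_NP and 0 in both knockout libraries. Gm9786, on chromosome 17, was at 60.8 FPKM in WT_ES and listed at 0 in DKO_ES, but at 0.337 and 0.211 in the day 6 libraries. On chromosome 12, 6430411K18Rik stood at 8.4 FPKM in WT_ES against 0.525 in DKO_ES, and at 17 and 1.48 on day 6. Glod5, a glyoxalase-domain gene on chromosome X, was at 5.71 FPKM in WT_ES against 28.5 in DKO_ES but low in both day 6 libraries, at 0.155 and 0.299. Otud6a, an X-linked deubiquitinase gene, was at 9.5 and 37.7 FPKM in the ES libraries and at 0.542 and 15.54 on day 6.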
